A study of Homo sapiens with 6 samples.

Results

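The genes described here are 28 small nucleolar RNA host genes, whose symbols are SNHG followed by a number, and 7 further long noncoding genes, GAS5, ZFAS1, EPB41L4A-AS1, MALAT1, NEAT1, MEG3 and H19. They are defined by symbol alone and are 35 of the 38100 genes in the count table. RNA came from HK2 cells, an immortalised line from the proximal tubule of the human kidney, and was enriched for polyadenylated transcripts before sequencing. In the AdCtrl group the cells carried an adenovirus with an empty vector (3 samples), and in the AdSirt4 group an adenovirus for SIRT4 (3 samples). Both groups were labelled wild type and both were stimulated with TGF-β1, so no sample shows the cells without TGF-β1 or without virus. The comparison asks how expression of these noncoding genes differed when SIRT4, a sirtuin best known from mitochondria, was overexpressed.

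Small nucleolar RNAs (snoRNAs) guide the chemical modification of ribosomal RNA. In human cells most of them are cut out of the introns of longer transcripts, and in the SNHG genes, GAS5, ZFAS1 and EPB41L4A-AS1 the spliced remainder has little or no coding function. Many of these host transcripts begin, like the mRNAs of ribosomal proteins, with a terminal oligopyrimidine tract, and several are cleared by nonsense-mediated decay when they are translated. MALAT1 and NEAT1 are abundant nuclear RNAs that host no snoRNA. MALAT1 lies in nuclear speckles, and the long form of NEAT1 is the scaffold of paraspeckles. MEG3 and H19 are imprinted noncoding genes.

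The SNHG genes with GAS5, ZFAS1 and EPB41L4A-AS1 form a host group of 31 genes, of which 26 had at least 1 snoRNA annotated within their span in RefSeq (GRCh38.p14). SNHG14, which spans 595855 bases of chromosome 15, held 84 of them, GAS5 held 11 and SNHG1 held 9. SNHG10, SNHG20, SNHG21, SNHG22 and SNHG27 held 0 in this annotation. The snoRNAs themselves were not analysed here.

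A start sequence was found among the RefSeq promoters for 30 of the 35 genes. In 7 of these 30 (23.3%) the first listed start was a C followed by at least 4 pyrimidines on the sense strand, the letters of a terminal oligopyrimidine tract. Such a start was held by 4.0% of all 27305 genes with a promoter entry and by 64.7% of 68 cytosolic ribosomal protein genes. With the same letters allowed within 5 bases of the start, the shares were 46.7% of the 30 genes, 21.1% of all genes and 76.5% of the ribosomal protein genes. The windows below show the 5 bases before the start and the first 20 transcribed bases in GRCh38.p14, 5′ to 3′ on the gene's strand, with the unbroken run of pyrimidines at the start in capitals. The first 7 are the genes with the tract. GAS5, SNHG29 and MALAT1 are printed as abundant genes without it at this annotated start.
SNHG32 (chr6:31834911-31834935, plus strand): tagttCTTTTTgcgaagtgggctcg
SNHG5 (chr6:85678714-85678738, minus strand): tcggtCTTTTacgtcggccttcgcg
ZFAS1 (chr20:49278637-49278661, plus strand): tcgttCTTTCgcgtctgcggtgccc
SNHG19 (chr16:2155339-2155363, minus strand): cctgtCTTTTCggggtcgagtccga
SNHG12 (chr1:28581854-28581878, minus strand): agcgcCCTTTCTCCCCgccgcattc
SNHG4 (chr5:139274096-139274120, plus strand): ggctgCCCTTTCCCCTCCggcctct
SNHG18 (chr5:9546195-9546219, plus strand): gccgcCTCCTCCTCCTCCTCCTCCC
GAS5 (chr1:173869026-173869050, minus strand): aattcagatgtgtttattttggagc
SNHG29 (chr17:16438982-16439006, plus strand): tgtgaggattgggatattccgactc
MALAT1 (chr11:65497733-65497757, plus strand): ccctcCgcagcctgcagcccgagac
MALAT1 holds these letters just before its start and so counts in the setting within 5 bases, whereas GAS5 and SNHG29 do not. A start that lacks these letters says only that they are not at this annotated position.

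The libraries held between 41537353 and 85684748 counts. SIRT4 itself was counted 31 to 57 times per AdCtrl library and 1996 to 7995 times per AdSirt4 library. Of 15 epithelial and tubular markers 8 had a mean of at least 1 FPKM (the deposited value per length and library size), among them KRT8, KRT18 and PAX8, whereas the proximal tubule markers LRP2, CUBN, AQP1, SLC34A1 and ANPEP did not reach it. Summed over each list, endothelial markers came to at most 0.109 FPKM, fibroblast markers to 8.66 to 9.93 FPKM with COL3A1 at 0, and leukocyte markers to 18.6 to 23.9 FPKM with CD3E at 0. One library stood apart. Set against the mean of AdSirt4 replicates 2 and 3, AdSirt4 replicate 1 showed a median log2 difference of 0.68 among the shortest 10% of tested genes (up to 1.16 kb), and of -0.76 among the longest 10% (7.70 kb or more). Most of the genes described here are short, so results that this library moves are given with and without it.

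Levels of the genes spanned more than 3 orders of magnitude. They are compared between genes on the deposited FPKM scale, which corrects for gene length. GAS5 had the highest FPKM. Its FPKM were 314.3, 290.6 and 346.0 in the AdCtrl samples, while AdSirt4 replicates 1 to 3 gave 450.9, 272.8 and 300.9 FPKM. The lowest of these lay above the highest sample of the next gene. SNHG29 followed with a mean of 196.7 FPKM over the 6 samples, SNHG32 with 165.0, SNHG6 with 100.1 and ZFAS1 with 91.2. Sample ranges of neighbouring genes among these 4 overlapped, and below ZFAS1 there was another gap, to SNHG5 with 49.3 FPKM. NEAT1 (35.7 FPKM), SNHG1 (35.5), SNHG7 (31.0), MALAT1 (30.1), SNHG15 (25.6) and SNHG8 (20.8) then formed a series in which each gene's range overlapped the next. Per length, NEAT1 and MALAT1 thus ranked below several host genes, although MALAT1 alone took 0.0233% to 0.0400% of all counts and NEAT1 took 0.0176% to 0.0286%. These ranks hold for RNA enriched for polyadenylated transcripts, and how far that enrichment bears on each gene was not tested. The FPKM of NEAT1 also rest on a length that differed between samples, as given below. A mean of at least 1 FPKM was reached by 28 of the 35 genes. SNHG26, SNHG28, SNHG31, SNHG22 and H19 lay between 0.747 and 0.0795 FPKM. MEG3 and SNHG27 had a count of 0 in all 6 samples, which allows up to 3 counts, or 0.0350 to 0.0722 CPM (counts scaled to library size) depending on the library. This limit covers counting error alone.

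**Figure D1:**
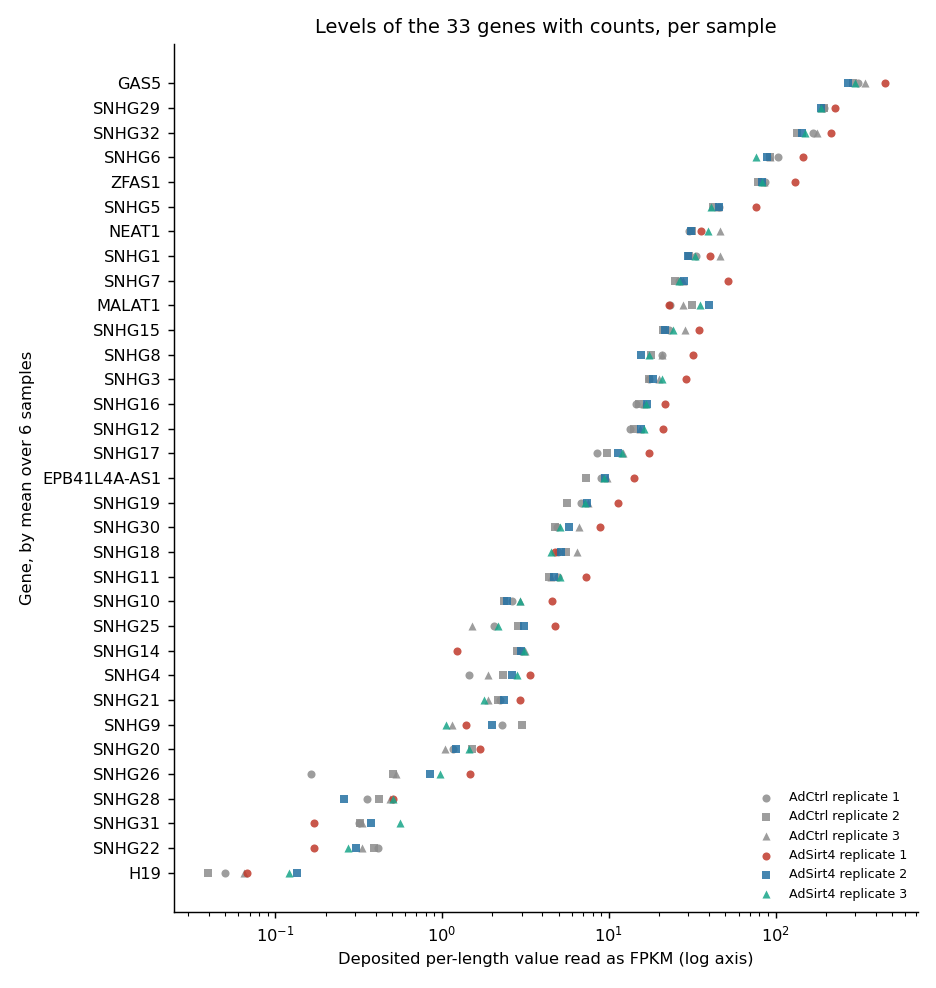
Deposited FPKM (log axis) of the 33 genes with any counts, 1 point per sample, with genes ordered by their mean over the 6 samples. GAS5 lies apart at the top with 272.8 to 450.9 FPKM and H19 at the bottom with 0.0393 to 0.135 FPKM, and AdSirt4 replicate 1 (red circles) is the highest sample for most host genes.

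In edgeR's quasi-likelihood test of AdSirt4 against AdCtrl cells, 33 of the 35 genes had enough counts to be tested and 0 of them had an adjusted p under 0.05, a threshold that 0.0113% of all 17720 tested genes passed. DESeq2 also gave 0, with no adjusted p for H19, where it called 1.16% of all tested genes. At an unadjusted p under 0.05 in edgeR there were 3 of 33, SNHG26, SNHG4 and H19, each higher in AdSirt4 cells, and 0 lower. Of all tested genes 7.93% reached this threshold, 4.43% higher and 3.5% lower. DESeq2 gave 3 of 33 at this threshold, SNHG26, SNHG4 and SNHG17 (unadjusted p = 0.0479), where 9.24% of all tested genes reached it, and H19 was not among them (unadjusted p = 0.0926). With the replicate number as a block, SNHG26 and SNHG4 remained under 0.05 unadjusted, where 7.2% of all tested genes were, and 0 of the 33 passed the adjusted threshold, where 0.00564% did.

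For 6 of the 33 genes the groups had no overlap, where this was so for 19.4% of all tested genes. SNHG4, SNHG12, SNHG16, SNHG26 and H19 had their 3 AdSirt4 samples on top (background 9.64%), and SNHG22 had them at the bottom (background 9.78%). A two-sided exact permutation test of 3 samples against 3 cannot give a p below 0.1 for such a gene. Of the 33 log2 fold changes 29 were above 0 and 4 below, where 53.4% of all tested genes were above 0. The median was 0.27, beside 0.021 over all tested genes. In bulk samples, fewer cells with a transcript and less of it per cell cannot be told apart.

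This lean towards higher values rested on AdSirt4 replicate 1. Without it, 19 of the 33 genes were above 0 and 14 below, and the median was 0.013. Of the 30 tested host genes, 25 had their highest value of all 6 samples in AdSirt4 replicate 1, which was so for 36.6% of all tested genes. Leaving out this library moved the log2 fold change of 27 host genes downwards, for some of them past 0. Of the 30 host genes, 18 were then within 0.15 of 0 and 14 were below 0 (4 over all samples). At an unadjusted p under 0.05 (24.3% of all genes tested in that fit), 5 genes were then higher in AdSirt4 cells, MALAT1, NEAT1, H19, SNHG4 and SNHG26, where 11.8% of all genes were. GAS5, SNHG6 and SNHG8 were lower, where 12.5% of all genes were. Again 0 had an adjusted p under 0.05, although 6.71% of all genes did.

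**Figure D2:**
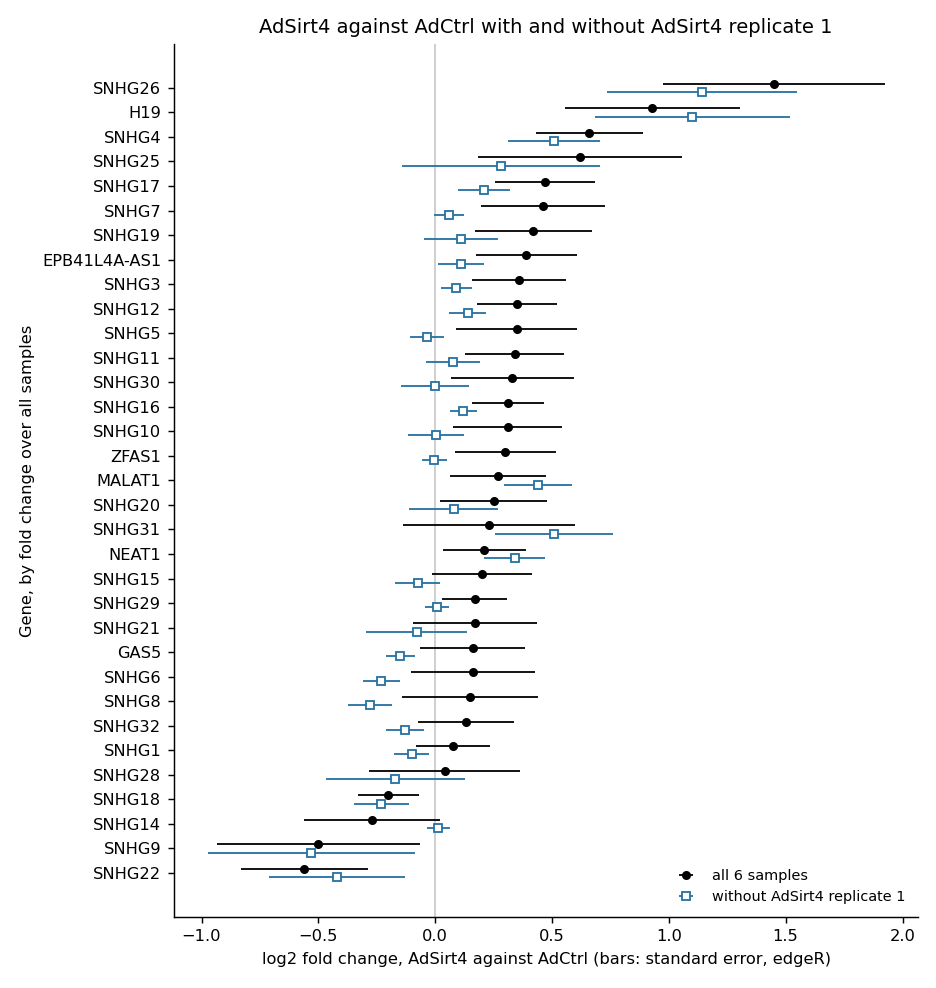
Fitted log2 fold change, AdSirt4 over AdCtrl, with its standard error (edgeR) for the 33 tested genes, over all 6 samples (black circles) and without AdSirt4 replicate 1 (open blue squares). The black points have a median of 0.27 and the open points one of 0.013, and SNHG14, SNHG22, SNHG31, MALAT1, NEAT1 and H19 lie further to the right without that library.

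The abundant host genes showed this lean sample by sample, on the CPM scale after TMM scaling. GAS5, the host of 11 annotated snoRNAs and a transcript known to accumulate on growth arrest, measured 217.1, 205.2 and 230.0 CPM in AdCtrl cells, while AdSirt4 replicates 1 to 3 gave 336.0, 187.5 and 205.3 CPM. Replicate 1 was thus the highest of all samples, and the other AdSirt4 replicates lay near or below the lowest AdCtrl sample. Its log2 fold change of 0.16 (SE 0.223, edgeR adjusted p = 0.835) became -0.15 (SE 0.0623, adjusted p = 0.165) without AdSirt4 replicate 1.

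ZFAS1, which hosts the SNORD12 family, measured 87.9, 79.9 and 85.5 CPM in AdCtrl cells, while AdSirt4 replicates 1 to 3 gave 143.4, 85.6 and 83.5 CPM. Outside AdSirt4 replicate 1 the samples of both groups interleaved. Over all samples ZFAS1 differed by a log2 of 0.30 (SE 0.215), and by -0.0029 (SE 0.0547) without that library. SNHG29, the host of SNORD49A, SNORD49B and SNORD65, went from 229.9, 233.9 and 225.5 CPM (AdCtrl) to 310.5, 232.8 and 230.5 CPM (AdSirt4). Leaving out replicate 1 moved its log2 fold change from 0.17 to 0.0075 (SE 0.0497). SNHG32, the host of SNORD48 and SNORD52, measured 142.8, 118.1 and 145.9 CPM against 197.8, 121.8 and 126.5 CPM, and here also AdSirt4 replicates 2 and 3 lay within the AdCtrl range. The fitted log2 fold change was 0.13, and -0.13 without replicate 1.

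SNHG6, the host of SNORD87, and SNHG8, the host of SNORA24, were the abundant host genes furthest below 0 once AdSirt4 replicate 1 was set aside. SNHG6 measured 82.3, 76.2 and 71.6 CPM in AdCtrl cells against 125.7, 70.7 and 60.3 CPM in AdSirt4 cells. SNHG8 measured 13.4, 11.5 and 13.2 CPM against 21.5, 9.99 and 11.0 CPM. For both genes replicates 2 and 3 lay below all AdCtrl samples and replicate 1 above them. In SNHG6 the log2 fold change was 0.16 over all samples and -0.23 without replicate 1 (SE 0.0786, edgeR adjusted p = 0.107). In SNHG8 it was 0.15 and -0.28 (SE 0.0948, adjusted p = 0.0991).

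SNHG7, the host of SNORA17A and SNORA17B, measured 31.8, 31.3 and 32.4 CPM in AdCtrl cells against 65.0, 34.2 and 32.3 CPM in AdSirt4 cells. That is a log2 fold change of 0.46 (SE 0.266), and of 0.059 without replicate 1. SNHG5, the host of SNORD50A and SNORD50B, measured 26.01, 24.6 and 24.9 CPM against 46.9, 26.1 and 23.2 CPM. For SNHG5 the fitted log2 fold change was 0.35, and -0.035 without replicate 1. In both genes replicate 1 stood alone above 5 samples of similar value.

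SNHG1, the host of SNORD22 and of SNORD25 to SNORD31, measured 52.6, 49.6 and 59.0 CPM against 69.5, 47.4 and 53.0 CPM. SNHG15, the host of SNORA9, measured 22.7, 21.4 and 26.8 CPM against 36.5, 21.3 and 23.7 CPM. Their log2 fold changes of 0.075 and 0.20 became -0.10 and -0.076 without replicate 1. EPB41L4A-AS1, the host of SNORA13, measured 12.2, 10.2 and 12.7 CPM against 20.8, 12.9 and 12.6 CPM. Its log2 fold change was 0.39 (SE 0.216) over all samples and 0.11 without replicate 1. Together the 31 host genes took 0.114%, 0.109% and 0.119% of all counts in AdCtrl cells, while AdSirt4 replicates 1 to 3 gave 0.155%, 0.109% and 0.112%. These shares overlapped between the groups (two-sided exact permutation test, p = 0.9). All 35 genes, MALAT1 and NEAT1 included, took 0.155%, 0.165% and 0.170% against 0.197%, 0.177% and 0.173%, without overlap (exact permutation p = 0.1, the lowest that 3 against 3 samples allow). This sum drew on different genes in different libraries. MALAT1 and NEAT1 together took 0.041%, 0.056% and 0.052% in AdCtrl cells against 0.042%, 0.069% and 0.061% in AdSirt4 cells. AdSirt4 replicate 1 was thus high through the host genes, and replicates 2 and 3 through MALAT1 and NEAT1.

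The position of AdSirt4 replicate 1 followed gene length, as implied by the ratio of counts to FPKM. Of the 30 tested host genes 29 were shorter than 3000 bases, and 27 were higher in AdSirt4 replicate 1 than in the mean of replicates 2 and 3, where 49.4% of all tested genes were. The median difference over the host genes was a log2 of 0.69. After subtraction of the running median of all tested genes at each gene's own length, the median difference was 0.069. Of the 30 host genes 20 lay within 0.25 of this running median, and 20 lay above it. GAS5 (605 bases) differed by 0.78 where the running median was 0.728, and ZFAS1 (894 bases) by 0.76 where it was 0.689.

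SNHG14, the host of the SNORD115 and SNORD116 clusters, was the opposite case. Its implied length was the greatest of the set (19125 bases). It measured 64.8, 62.7 and 66.2 CPM in AdCtrl cells, while AdSirt4 replicates 1 to 3 gave 29.1, 64.5 and 66.3 CPM. The difference of AdSirt4 replicate 1 was -1.17, and the running median at that length was -1.168. Over all samples the log2 fold change of SNHG14 was -0.27 (SE 0.290), and without this library it was 0.013 (SE 0.0499).

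Across the 33 tested genes, the Spearman correlation of length with the difference of AdSirt4 replicate 1 was -0.68, beside -0.58 across all tested genes. This is a description across genes that share the same libraries. Some genes lay away from the running median. SNHG31 (-1.24 where the running median was 0.208), SNHG22 (-0.55 where it was 0.391) and H19 (-0.74 where it was 0.131) were far below it, and their highest counts in any sample were 114, 48 and 33. SNHG3, the host of SNORA73A and SNORA73B, lay furthest above it (0.70 where it was 0.208). SNHG7, SNHG8, SNHG10, SNHG16 and SNHG28 also lay above the running median, by 0.29 to 0.44. SNHG9 and SNHG18 differed from it by -0.59 and -0.39.

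When each library's trend on gene length was removed before the edgeR test, the median log2 fold change over the 33 genes was 0.19, beside 0.0165 over all tested genes. Of the 33 genes 23 were then above 0 and 10 below, where 9446 of all 17720 tested genes were above 0. An unadjusted p under 0.05 was reached by 8 of the 33 genes, where 13.9% of all tested genes reached it. The adjusted threshold was passed by 0 of the 33, where 0.0677% of all tested genes passed it. SNHG4, SNHG7, SNHG12, SNHG16, SNHG17, SNHG26 and MALAT1 were higher in AdSirt4 cells (background 7.57%), with log2 fold changes from 0.22 for SNHG12 to 1.29 for SNHG26. SNHG14 was lower (-0.19, SE 0.0776), where 6.34% of all tested genes were. Without AdSirt4 replicate 1, and with no trend removed, SNHG14 was at 0.013. In the fit with the length trend removed, GAS5, SNHG32, SNHG6, SNHG8 and SNHG1 were between -0.049 and -0.012.

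SNHG26, SNHG4 and H19, the genes with an unadjusted p under 0.05 over all samples, were weakly expressed. SNHG26 (chr7:22854240-22861436), the host of SNORD93, was counted 8, 20 and 23 times in AdCtrl cells, while AdSirt4 replicates 1 to 3 gave 54, 63 and 67 counts. These correspond to 0.148, 0.471 and 0.448 CPM against 1.39, 0.730 and 0.824 CPM, so that the AdSirt4 samples were the top 3. SNHG26 had a log2 fold change of 1.45 (SE 0.473, edgeR adjusted p = 0.558), and of 1.14 without AdSirt4 replicate 1. Over the alternatives its adjusted p ran from 0.0536 to 0.971.

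SNHG4 (chr5:139274101-139284900), the host of SNORA74A, measured 1.78, 2.87 and 2.20 CPM in AdCtrl cells against 4.36, 3.14 and 3.33 CPM in AdSirt4 cells, without overlap. For SNHG4 this was a log2 fold change of 0.66 (SE 0.230, edgeR adjusted p = 0.591), and of 0.51 without AdSirt4 replicate 1. All 10800 bases of its span lie on the strand of MATR3, whose mean of 326.3 CPM was far above the 2.93 CPM of SNHG4, and how the counting divided reads between both genes is not given in the sources used here.

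H19 (chr11:1995176-2001266) was counted 8, 6 and 10 times in AdCtrl cells, while AdSirt4 replicates 1 to 3 gave 8, 33 and 26 counts. In CPM these are 0.148, 0.141 and 0.195 against 0.205, 0.383 and 0.320, with AdSirt4 replicate 1 close to the AdCtrl samples. The fitted value for H19 was a log2 fold change of 0.93 (SE 0.374, edgeR adjusted p = 0.612) and 1.10 without AdSirt4 replicate 1, and the unadjusted p of 0.0407 became 0.0779 with the replicate block. The whole of H19 lies within the span of MRPL23 in RefSeq (36.2 CPM).

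MALAT1 and NEAT1 were higher in AdSirt4 replicates 2 and 3 than in any AdCtrl sample, whereas AdSirt4 replicate 1 fell within the AdCtrl range. MALAT1 (chr11:65497738-65506516) measured 232.3, 323.5 and 268.1 CPM in AdCtrl cells, while AdSirt4 replicates 1 to 3 gave 247.8, 397.3 and 348.0 CPM. In each group replicate 1 was the lowest sample and replicate 2 the highest. Its log2 fold change was 0.27 (SE 0.205, edgeR adjusted p = 0.749). It was 0.44 (SE 0.144, adjusted p = 0.142) without AdSirt4 replicate 1 and 0.39 (SE 0.126, adjusted p = 0.260) with the length trend removed. Other libraries moved it the other way, to 0.12 without AdSirt4 replicate 2 and 0.16 without AdCtrl replicate 1. In limma voom with sample quality weights, a fit in which libraries that stand apart count less, MALAT1 passed with an adjusted p of 0.0340, and H19 with 0.0424. That fit called 8.94% of all tested genes, and 27.5% of them had an unadjusted p under 0.05.

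NEAT1 (chr11:65422798-65445540) measured 174.4, 226.9 and 235.3 CPM in AdCtrl cells, while AdSirt4 replicates 1 to 3 gave 196.4, 284.4 and 253.6 CPM. Its log2 fold change was 0.21 (SE 0.178, edgeR adjusted p = 0.767), and 0.34 (SE 0.132, adjusted p = 0.184) without AdSirt4 replicate 1. Without AdCtrl replicate 1 or AdSirt4 replicate 2 it was 0.083 and 0.090. On the FPKM scale this direction was lost. There NEAT1 had 30.3, 31.5 and 46.2 FPKM against 35.8, 30.9 and 39.3 FPKM, and limma on log2(FPKM + 1) gave a difference of -0.0071.

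Counts and FPKM of NEAT1 were tied by a length that differed between samples. For MALAT1 this implied length was 8781 or 8782 bases in every sample, and for GAS5 604 to 607 bases. For NEAT1 it was 5046, 6161 and 4640 bases in AdCtrl cells, while AdSirt4 replicates 1 to 3 gave 4453, 8096 and 5749 bases, so that the longest value was 1.82 times the shortest. The groups overlapped (two-sided exact permutation test, p = 0.7). NEAT1 is known for a short polyadenylated form and a long form that share their start, and the values used here are not split by form. SNHG1 also varied in implied length, from 1162 to 1442 bases.

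**Figure D3:**
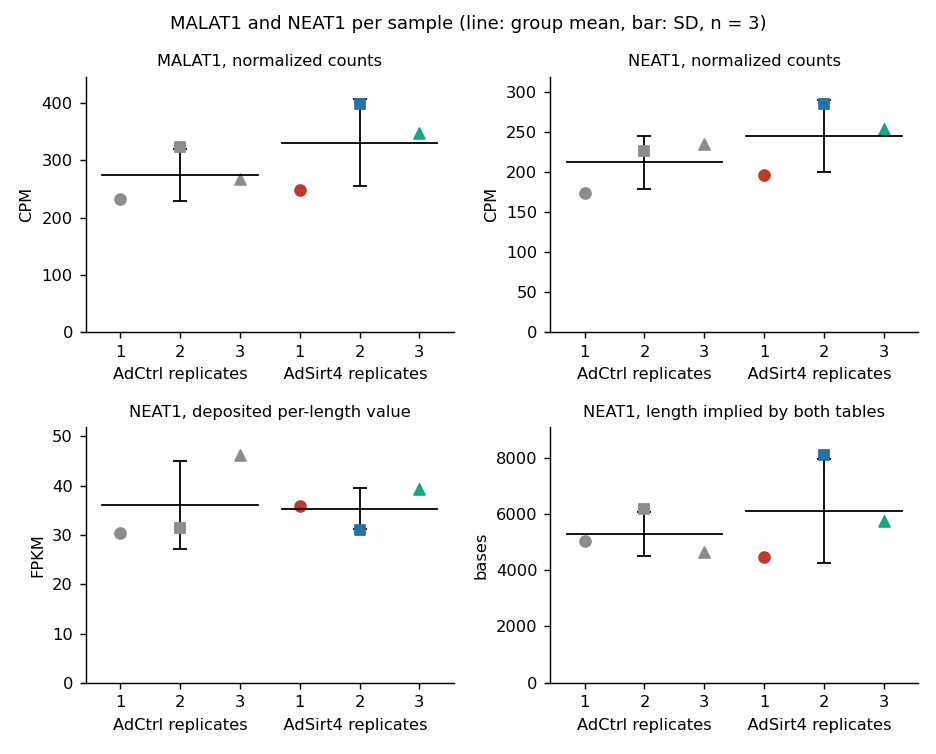
CPM of MALAT1 and NEAT1, FPKM of NEAT1 and the length of NEAT1 implied by both tables in bases, per sample, with the group mean (line) and SD (bar, n = 3). AdSirt4 replicate 2 has the highest CPM of both genes but 30.9 FPKM of NEAT1, beside an implied NEAT1 length of 8096 bases.

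Genes that work with these noncoding genes were read from lists, whose counts at an unadjusted p under 0.05 stand beside 7.93% of all tested genes. Of 18 proteins that form or assemble snoRNA particles, all 18 had a log2 fold change above 0, with a median of 0.22 that was 0.018 without AdSirt4 replicate 1. NOP58, a core protein of box C/D particles, alone reached an unadjusted p under 0.05 (1 of 18), at 62.9, 72.7 and 58.6 CPM in AdCtrl cells against 100.6, 78.4 and 77.1 CPM in AdSirt4 cells (log2 fold change 0.40, SE 0.141, edgeR adjusted p = 0.594, and 0.26 without AdSirt4 replicate 1). Of 21 protein-coding snoRNA hosts outside the ribosomal proteins, 2 had an unadjusted p under 0.05, a share near that of all tested genes. These were HSPA8, a heat shock protein (log2 fold change 0.44, and 0.39 without AdSirt4 replicate 1), and PPAN, a factor of ribosome assembly (0.29 and 0.30). HSPA8 spanned 502.9 to 635.2 CPM in AdCtrl cells and 717.3 to 846.2 CPM in AdSirt4 cells.

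The cytosolic ribosomal proteins also leaned higher with AdSirt4 replicate 1. Of 84 tested, 83 were above 0 with a median of 0.29, and without that library 18 were above 0 and 66 below, with a median of -0.065. Over all samples 0 of them had an unadjusted p under 0.05 in edgeR and 1 in DESeq2. RPL34 and RPL14 had the smallest p of these in edgeR. RPL34 spanned 232.9 to 234.8 CPM in AdCtrl cells, while AdSirt4 replicates 1 to 3 gave 500.4, 259.6 and 268.0 CPM, a log2 fold change of 0.55 that was 0.17 without replicate 1. For RPL14 the log2 fold change was 0.38, and 0.10 without AdSirt4 replicate 1. Among 13 tested regulators of genes with terminal oligopyrimidine tracts, the 1 with an unadjusted p under 0.05 was MYC, a transcription factor that drives ribosome production. MYC measured 124.1, 119.2 and 139.3 CPM against 150.8, 150.1 and 153.0 CPM, so that its AdSirt4 samples were close together. Its log2 fold change was 0.25 (unadjusted p = 0.0383 in edgeR and 0.0639 with the replicate block), and without AdSirt4 replicate 1 it was 0.24 with an adjusted p of 0.0492.

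Of 17 tested paraspeckle proteins, 4 had an unadjusted p under 0.05 and all 4 were higher in AdSirt4 cells, where 4.43% of all tested genes were. SFPQ, which binds NEAT1 and is needed for paraspeckles, measured 339.1, 397.8 and 323.3 CPM against 526.0, 486.1 and 465.5 CPM. These groups were separate, and its log2 fold change of 0.48 (SE 0.123, edgeR adjusted p = 0.494) was 0.42 without AdSirt4 replicate 1, with an adjusted p of 0.0167. TAF15 (log2 fold change 0.50, and 0.43 without AdSirt4 replicate 1) and RBM4B (0.27 and 0.21, unadjusted p = 0.0525 with the replicate block) were also among them, and for both the groups were separate. The median of this list was 0.11, and 0.065 without AdSirt4 replicate 1. Of 17 factors of nonsense-mediated decay, 0 had an unadjusted p under 0.05 in edgeR and 1 in DESeq2, and the median was -0.0037. EIF4A3 (log2 fold change 0.37, unadjusted p = 0.0574) and MAGOH (0.54, 0.0857), both of the exon junction complex, had the smallest p of these in edgeR, and EIF4A3 had 0.0491 with the replicate block. Without AdSirt4 replicate 1 their log2 fold changes were 0.16 and 0.14.

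Other long noncoding genes were split evenly, with 11 of 22 tested above 0 and 11 below and a median of 0.043. MIR210HG, the host of the hypoxia-responsive miR-210, had the largest log2 fold change (1.05, SE 0.277, edgeR adjusted p = 0.494) of the 4 with an unadjusted p under 0.05, all higher, where 4.43% of all tested genes were. It measured 4.27, 3.67 and 3.21 CPM against 11.1, 6.68 and 5.46 CPM, and the difference without AdSirt4 replicate 1 was 0.70 (adjusted p = 0.0220). MIR22HG (0.61), UCA1 (0.37) and PVT1 (0.27, unadjusted p = 0.0796 with the replicate block) were the others, with 0.56, 0.43 (adjusted p = 0.0300) and 0.20 without AdSirt4 replicate 1. In that fit 4 of the 22 had an adjusted p under 0.05, where 6.71% of all genes did. MIR210HG and UCA1 were among them, but not MIR22HG (edgeR adjusted p = 0.0634) or PVT1 (0.181). At an unadjusted p under 0.05, 5 of the 22 were then higher, where 11.8% of all genes were, and 3 were lower, where 12.5% were. The direction of the other genes that passed is not given here. Of the imprinted neighbours of MEG3 and H19, 5 of 11 had enough counts to be tested and 0 had an unadjusted p under 0.05 in edgeR and in DESeq2. PHLDA2 (log2 fold change 0.37, unadjusted p = 0.143) and KCNQ1 (-0.32, 0.239) had the smallest p of these from edgeR, and their log2 fold changes without AdSirt4 replicate 1 were 0.090 and -0.20.

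For 15 of the 35 genes another gene with a mean of at least 1 CPM overlaps their span in RefSeq, and the sources used here do not say that strand was used in counting. EPB41L4A-AS1 (13.5 CPM) lies wholly within the span of EPB41L4A on the other strand (9.18 CPM). SNHG3 shares 4850 bases of span with RCC1 on the same strand, SNHG22 (0.595 CPM) lies opposite MYO5B (75.5 CPM), and SNHG14 overlaps UBE3A on the other strand (70.7 CPM). Values of these genes can hold reads of the partner, whose part in the results was not tested.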

How the data were processed

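Total RNA of 6 HK2 samples was enriched with poly-T beads and sequenced. The authors deposited whole-number counts per gene without normalization, and a second table whose values behave as FPKM, though the file names no unit. The submitters' processing notes list fastp 0.21.0, HISAT2 2.1.0, StringTie 2.1.5, DESeq2 1.30.1 and hg38. The annotation is not given in the sources used here.

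Groups were taken from the sample titles. One label numbers the cell line from HK2 upwards across the samples, and all were taken to be HK2 as their titles say. The paper's methods describe data from independent experiments, while its reporting checklist defines n in vitro as technical replicates. Neither names these samples, so p-values measure the spread between them, which may be technical. No replicate was a copy of another (chi-square per gene between 10.1 and 233.2).

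Genes were filtered with filterByExpr (minimum count 10), scaled with TMM and compared with the robust quasi-likelihood test of edgeR 4.0.16 in R 4.3.3, with Benjamini-Hochberg adjustment over all tested genes. Gene length was computed as counts divided by FPKM and library size, put on one scale across samples, and divided by 1.146, its median ratio to the transcript length of 596 genes with 1 GENCODE v29 transcript. For 11949 of 19099 genes it agreed within 5% over the samples. The running median used 501 genes. The correlation across genes of the deviations from the group means was 0.21, 0.154 and 0.255 for samples with the same replicate number and between -0.221 and 0.0547 for the others, so the numbers were taken to pair the samples as a hint from the data. The procedure was tested on simulated data. Alternatives used DESeq2 1.42.0 and limma 3.58.1. Tables and figures were made with Python 3.11.15, pandas 2.3.3 and matplotlib 3.10.9.

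The genes and lists were chosen with earlier results of these data known. The genes named with values were the 7 chosen by name, SNHG genes with an unadjusted p under 0.05, the 8 SNHG genes with the highest FPKM, and from each list the members with an unadjusted p under 0.05, or the 2 with the smallest p where there were 0 or more than 4. SNHG14, SNHG12, SNHG16, SNHG22, SNHG31, SNHG3, SNHG17, SNHG9, SNHG10, SNHG18 and SNHG28 were named after their values were seen. For 1 list member that this rule names, values are not reported here.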

Additional observations from a re-analysis of the deposited data

How the results depend on the processing

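AdSirt4 replicate 1 decided the sign of the log2 fold change for some genes and not for others. EPB41L4A-AS1, SNHG4, SNHG7, SNHG26, SNHG29 and H19 stayed above 0 whichever library was left out. Leaving out each library in turn gave log2 fold changes of -0.15 to 0.32 for GAS5, -0.10 to 0.19 for SNHG1, -0.076 to 0.35 for SNHG15, -0.13 to 0.26 for SNHG32, -0.035 to 0.53 for SNHG5, -0.23 to 0.36 for SNHG6, -0.28 to 0.35 for SNHG8 and -0.0029 to 0.44 for ZFAS1, each lowest without AdSirt4 replicate 1. For MALAT1 they were 0.12 to 0.44 and for NEAT1 0.083 to 0.34, each highest without AdSirt4 replicate 1. The unadjusted count of these genes ran from 1 to 8 (3 over all samples). The 8 arose without AdSirt4 replicate 1, where 24.3% of all genes reached that threshold, against 7.93% over all samples. For the other libraries left out this share is not given here. The count without overlap ran from 8 to 13 (6 over all samples). Smaller groups overlap less often, and that share of all tested genes ran from 25.3% to 41.8%. The count of all genes with an adjusted p under 0.05 ran from 0 to 1227 (2 over all samples). With the length trend removed, without and with the replicate block, the log2 fold change turned below 0 for GAS5 (-0.012 and -0.011), SNHG1 (-0.034 and -0.032), SNHG32 (-0.025 and -0.018), SNHG6 (-0.030 and -0.036) and SNHG8 (-0.049 and -0.051). In limma voom with sample quality weights it was -0.16 for GAS5, -0.12 for SNHG1, -0.087 for SNHG15, -0.12 for SNHG32, -0.16 for SNHG6 and -0.30 for SNHG8. In limma on log2(FPKM + 1), whether blocked, unblocked or limited to a mean of at least 1 FPKM, NEAT1 was at -0.0071 and SNHG1 at -0.079, and with a pseudocount of 0.1 they were at -0.0069 and -0.081. The cause of these reversals was not tested. The adjusted count over all genes was 206 with DESeq2, 5 without a filter, 4 with at least 10 counts in every sample, 1 with the replicate block, 12 with the length trend removed, 6 with that and the block, 1584 with voom weights, 0 on log2(FPKM + 1) with or without the block, 1 with the pseudocount of 0.1 and 5 with a minimum mean of 1 FPKM. The unadjusted count of these genes was 8 with the length trend removed, where 13.9% of all tested genes reached that threshold. With voom weights it was also 8, where 27.5% of all tested genes did. It was 9 with the length trend removed and the block, 1 with at least 10 counts in every sample and 1 with a minimum mean of 1 FPKM. For these last settings the share of all tested genes is not given here. The median log2 fold change of these genes stayed above 0 in every setting, but it was 0.046 with voom weights and only 0.013 without AdSirt4 replicate 1. Of 302 single-gene values under alternatives 263 kept their direction and side of the threshold, 32 reversed, 5 (all SIRT4) lost the call and 2 (MALAT1 and H19 with voom weights) gained it. The block changed no other call than those given above. Depth limits H19, SNHG9, SNHG22, SNHG25 and SNHG26, with at most 67 counts in any sample.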
